A study of Mus musculus with 18 samples.

Results

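The complement system was followed here through 9 genes in stromal samples of bone marrow and adipose tissue from mice labelled HFD, with or without glutamine. The 9 genes encode 2 proteases of the first complement enzyme (C1ra and C1s1), the components C4b, C2 and C3, 2 proteins of the alternative pathway (Cfb and Cfp) and 2 regulators (Serping1 and Cd55). They were chosen by name from these data, with earlier results on the same libraries known and with no stated threshold on a value. All 9 were found among the 46983 gene names of both count tables. Because the measured values were in view when the list was made, the levels and differences below describe these genes and are not independent evidence of a pattern.

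All 18 libraries came from male mice of the inbred strain C57BL/6J, whose age the sources used here do not state. The 4 groups were bone marrow HFD, bone marrow HFD + Gln, adipose HFD and adipose HFD + Gln, with 4 HFD and 5 HFD + Gln libraries in each tissue, so HFD, the usual abbreviation of a high-fat diet, was shared by controls and treated samples, and glutamine was the only labelled difference within a tissue. The dose and route of glutamine are not stated there either. Titles call the marrow samples mBMSC and the adipose samples mAT-MSC VAT, and a pair of numbers such as 1_3 names each library. Neither the meaning of those numbers nor the source of each library from separate animals is stated, so the p-values reflect the spread among these libraries alone, and that spread may be technical. One marrow column of the glutamine arm carries a number pair that belongs to no marrow sample title, and it is called unnumbered.

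Complement is a cascade of plasma proteins that tags particles and cells for removal. In the classical pathway the C1r and C1s proteases cut C4 and C2, whose fragments form the enzyme that cuts C3, and in the alternative pathway factor B joins C3b to form a second such enzyme, which properdin stabilizes. C1 inhibitor, the product of Serping1, blocks C1r and C1s, and CD55, a protein anchored on the cell surface, speeds the decay of both C3-cutting enzymes. Most plasma complement comes from the liver, and fibroblasts, adipose tissue and macrophages also make several components locally.

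Positions are from GENCODE M21 on GRCm38. C4b (chromosome 17, 34728380 to 34743882), Cfb (34856374 to 34862518) and C2 (34862604 to 34898265) lie together on the minus strand in the major histocompatibility complex, with 0.086 kb between Cfb and C2. C3 lies elsewhere on chromosome 17 (57203970 to 57228136, minus strand). C1ra (chromosome 6, 124512405 to 124523443, plus strand) and C1s1 (124530345 to 124542359, minus strand) are separated by 6.9 kb. Serping1 is on chromosome 2 (84765387 to 84775444), Cd55 on chromosome 1 (130439027 to 130462744) and Cfp on chromosome X (20925454 to 20931555), all on the minus strand.

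Promoter windows of 300 bases, 250 before and 50 after the annotated start, were taken from RefSeq on GRCm38.p6, which matched 5 of the 9 genes (Serping1, C4b, C2 and Cfb had no entry). C1s1 had 2 windows, of which the first is shown. Those of C3, the gene with the highest adipose level of the 9, and of the neighbours C1ra and C1s1, whose proteins act together, are shown 5′ to 3′ on the strand of the gene. Capitals mark matches on either strand to TATAAA (the TATA box), TTGCNNAA (a C/EBP core) or TTCNNNGAA (a STAT core).
C3, chr17:57228087-57228386, minus strand: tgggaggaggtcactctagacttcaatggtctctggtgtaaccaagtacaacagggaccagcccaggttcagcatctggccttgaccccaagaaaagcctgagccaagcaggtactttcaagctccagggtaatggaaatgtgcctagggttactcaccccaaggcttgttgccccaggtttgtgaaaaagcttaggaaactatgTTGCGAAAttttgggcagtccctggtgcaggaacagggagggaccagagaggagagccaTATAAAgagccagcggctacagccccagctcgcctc
C1ra, chr6:124512371-124512670, plus strand: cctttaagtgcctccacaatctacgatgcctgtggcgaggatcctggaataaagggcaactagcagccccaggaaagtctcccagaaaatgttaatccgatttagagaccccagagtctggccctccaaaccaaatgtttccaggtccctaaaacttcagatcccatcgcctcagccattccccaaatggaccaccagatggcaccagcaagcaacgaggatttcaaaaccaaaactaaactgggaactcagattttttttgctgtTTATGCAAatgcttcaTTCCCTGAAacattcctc
C1s1, chr6:124542310-124542609, minus strand: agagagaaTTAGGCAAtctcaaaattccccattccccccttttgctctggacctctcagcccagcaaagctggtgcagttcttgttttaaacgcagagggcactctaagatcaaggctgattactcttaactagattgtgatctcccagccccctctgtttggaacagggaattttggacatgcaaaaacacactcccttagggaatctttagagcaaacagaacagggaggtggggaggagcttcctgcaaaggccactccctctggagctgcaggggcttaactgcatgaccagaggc
Counted from 1 at the 5′ end of each window, C3 held a C/EBP match at 206 and a TATA match at 265. C1ra held a C/EBP match at 267 and a STAT match at 283, and C1s1 a C/EBP match at 9. The matches at 265, 267 and 283 lie past base 250, so after the annotated start of their windows. In GENCODE C1ra starts at 124512405, so most of its window lies inside that gene model. The C/EBP letters occurred in 10.8% of all 32851 windows, TATAAA in 13.6% and the STAT letters in 8.3%. CCAAT (37.4% of windows) and an IRF element (3.44%) were in none of the 3 windows. The Cfp and Cd55 windows held none of these 5 motifs. The motifs searched did not overlap each other within the 3 windows, and a match of letters is a description of the sequence.

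Libraries were made from 30 ng of RNA and read near the 3′ end of transcripts, so each count stands for a transcript end and levels of different genes are compared in CPM (a gene's count as a share of the library total, in parts per 1e+06) with no division by length. Adipose libraries held 35871168 to 59529238 counts and marrow libraries 13970788 to 37984603. The number of genes reaching 100 counts was 11361 to 14469 per adipose library and 1755 to 7323 per marrow library. The thinnest of these were marrow HFD 23_28 (1755) and the unnumbered marrow glutamine library (1831). For the stromal label, all 10 stromal markers, among them Pdgfra, Dcn and Lum, reached 100 counts in every adipose library, and their summed level was 34020 to 49580 CPM in adipose and 64350 to 297100 CPM in marrow, where 6 of the 10 reached 100 counts in every HFD library and 5 in every glutamine library. Markers of other cells were present too: macrophage markers summed to 330.6 to 1627 CPM in adipose and 226 to 1608 CPM in marrow, and neutrophil markers to 51.79 to 288.1 CPM and 2699 to 54230 CPM. Endothelial markers summed to 385.9 to 1569 CPM in adipose and 2.388 to 256.8 CPM in marrow. Those of osteoblasts summed to 23.1 to 57.8 CPM and 1218 to 9412 CPM. Hepatocyte markers reached 7.66 CPM in adipose, 0.2979 CPM in marrow HFD and 416.1 CPM in marrow glutamine libraries (median 39.73). The part of these cells in the complement values was not tested. In such bulk samples, fewer cells of a type and less RNA per cell cannot be told apart.

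In adipose stroma 8 of the 9 genes reached 100 counts in every library, all but Cfb. Together the 9 genes took 0.903% to 1.17% of all counts in an adipose library (median 0.993%), against 0.0193% to 0.32% in marrow (median 0.146%). C3, the central component of the cascade, ranked 9 among all genes by mean adipose CPM, and Serping1 ranked 20. C3 stood at 4957, 5263, 5087 and 3942 CPM in the HFD libraries 1_3, 5_11, 14_17 and 23_28, and at 5922, 4281, 5416, 4809 and 4725 CPM in the glutamine libraries 4_6, 10_12, 13_15, 18_20 and 25_27. The arms overlapped, and all 9 libraries lay between 3942 and 5922 CPM.

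Serping1 read 3770, 2504, 3165 and 2880 CPM in the adipose HFD libraries and 3109, 4080, 2479, 2879 and 4516 CPM in the glutamine libraries, in the same order. Its range overlapped that of C3, although C3 was the higher of the pair in all 9 libraries. The protease genes came next, with C1s1 at 678.5 ± 274.6 CPM (SD, n = 9) and C1ra at 661.3 ± 123.7 CPM, which did not differ beyond their spread. C1ra ran from 523.2 to 921 CPM and C1s1 from 337.3 to 1142 CPM, so the inhibitor gene was read at a higher level than either protease gene in every adipose library.

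Cd55 followed at 288.8 ± 99.7 CPM (SD, n = 9), then C4b at 177 ± 157.5 CPM and C2 at 91.18 ± 29.89 CPM. Their ranges overlapped from one gene to the next: 125.4 to 442.9 CPM for Cd55, 99.39 to 589.5 CPM for C4b and 31.91 to 119.6 CPM for C2. Cfp, which encodes properdin, was low at 21.38 ± 14.21 CPM, and its range of 11.73 to 57.1 CPM overlapped that of C2. C1s1 and C4b values carry an uncertainty from near-identical copies. Over the last 300 bases of the transcript C4b and C4a matched at 294 of 299 aligned bases, and C1s1 and C1s2 at 233 of 241. Reads given to the copies were few: C4a had 268 counts over the 9 adipose libraries against 77689 for C4b, and C1s2 had 293 against 299841 for C1s1. The sources used here do not say how reads that fit both copies were handled.

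Cfb, the gene of factor B, was nearly unread. It had 0 counts in 15 of 18 libraries, 1 count in adipose HFD 14_17, 14 counts in adipose glutamine 13_15 and 38 counts in adipose glutamine 25_27. A count of 0 allows up to 3 counts, or 0.0504 to 0.2147 CPM depending on the library, for counting error only. The gene model Gm20547 lies on the same strand and had 0 counts in every library. It shares 2246 of the 2825 exon bases of Cfb and 221 of the last 300. Reads that fit both genes may have been left uncounted, which was not tested. The counts are therefore not read as the level of Cfb in these samples. C2 shares 1656 of 3872 exon bases with the same model, but none of its last 300. Genes on the opposite strand overlap exons of C2, C1s1 and Cd55, in each case outside the last 300 bases.

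**Figure D1:**
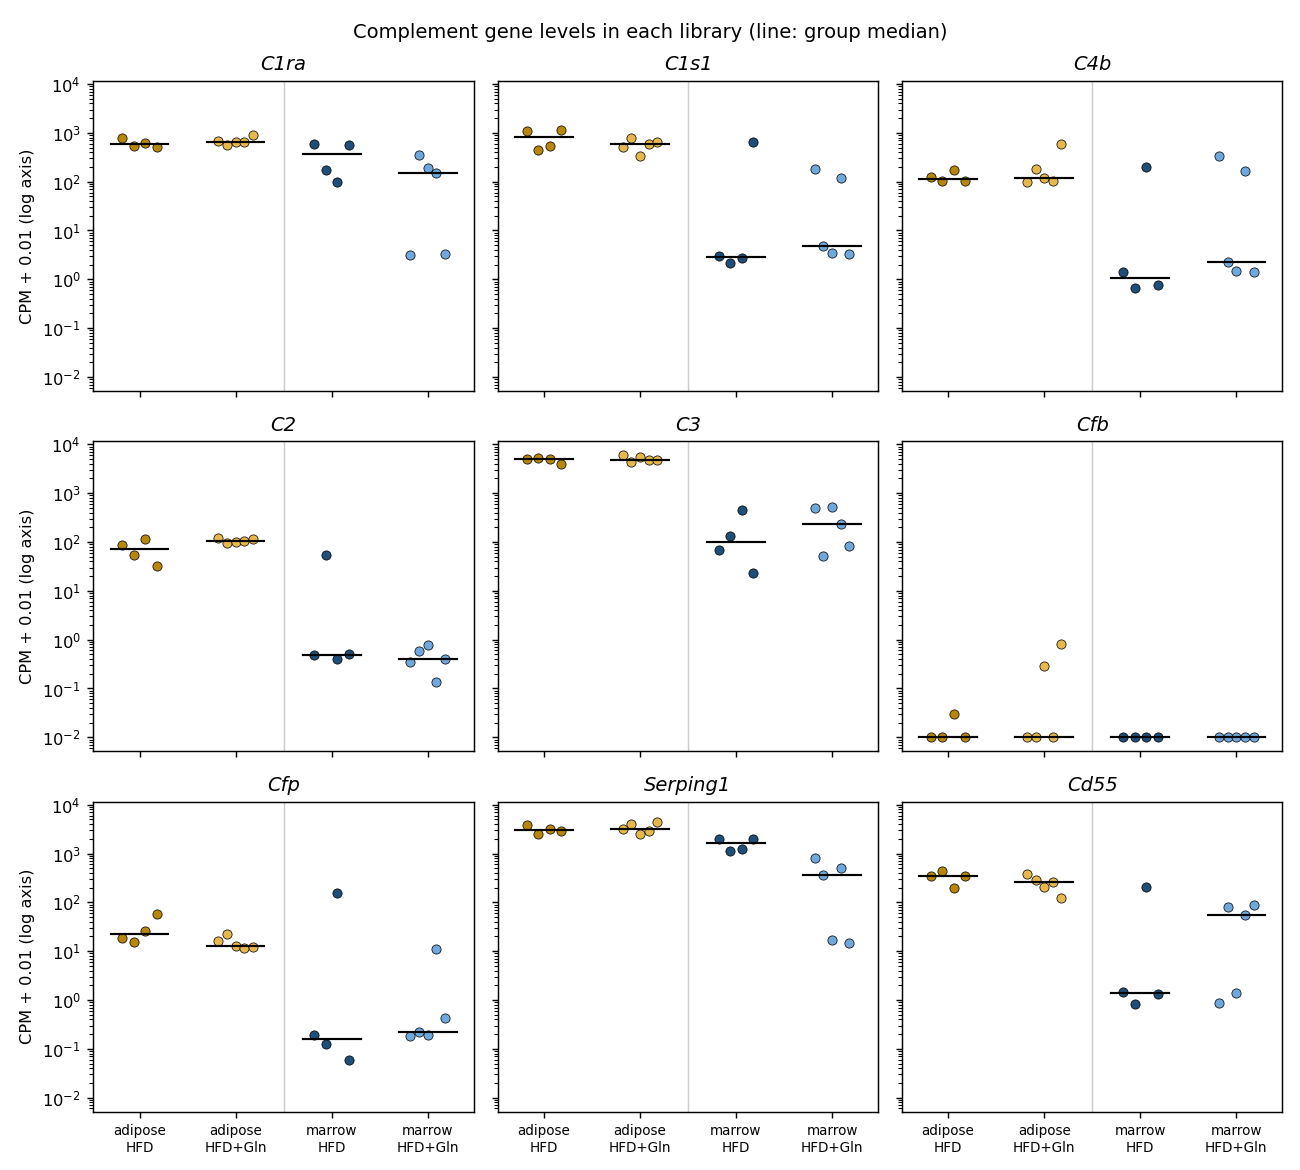
Level of each complement gene in every library, as CPM plus 0.01 on a log axis, by tissue and diet arm, with a line at each group median. The adipose points run from C3 near 4934 CPM on average down to Cfp at 21.38 CPM, with 1 C4b library apart at 589.5 CPM, while most marrow points split into high and low libraries and Cfb lies at the bottom.

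The question of glutamine in adipose stroma was asked by comparing the 5 glutamine with the 4 HFD libraries. None of the 8 complement genes tested passed an adjusted p of 0.05 (edgeR quasi-likelihood F test, two-sided, Benjamini-Hochberg adjustment over 15114 genes), and none had an unadjusted p under 0.05. The background was the same: 0% of all genes were called, 624 of them had an unadjusted p under 0.05, and DESeq2 called 31 genes and limma-voom 0, with no member among them. The median log2 difference, glutamine over HFD, was 0.088 for the 8 genes, 5 above and 3 below 0, and -0.017 for all genes.

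The values of the 2 most abundant genes lay near 0. C3 differed by 0.05 ± 0.158 (log2 glutamine over HFD ± SE, n = 4 and 5) and Serping1 by 0.13 ± 0.194. C1ra differed by 0.17 ± 0.182, C1s1 by -0.49 ± 0.295 and Cd55 by -0.42 ± 0.300. The adjusted p of each was 1.00 in edgeR, and each pair of arms overlapped.

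C2, whose product is cut by C1s, stood at 87.55, 53.27, 114.6 and 31.91 CPM in the HFD libraries and at 119.6, 93.87, 101.4, 103.6 and 114.8 CPM with glutamine. The glutamine libraries lay at the top of the HFD range, which they overlapped, and the log2 difference was 0.56 ± 0.303 (edgeR adjusted p = 1.00), or 0.32 ± 0.241 without HFD 23_28. Its coefficient of variation was 50.9% in HFD and 9.79% with glutamine, a difference in spread that was not tested. C4b read 124, 104.5, 171.9 and 104 CPM in HFD and 99.39, 178.3, 117.7, 103.8 and 589.5 CPM with glutamine. Only library 25_27 was high. The log2 difference of 0.77 ± 0.472 (edgeR adjusted p = 1.00) became -0.03 ± 0.244 without that library.

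Cfp went the other way in its values, at 18.75, 15.58, 25.5 and 57.1 CPM in HFD and 15.81, 22.81, 13.03, 11.73 and 12.14 CPM with glutamine. Its log2 difference was -0.97 ± 0.459 (edgeR adjusted p = 1.00), and -0.41 without HFD 23_28, the library with 57.1 CPM. Properdin is made by leukocytes. The 11 macrophage markers summed to 557.2, 1144, 726.6 and 1627 CPM in the HFD libraries and to 735.4, 621.7, 330.6, 393.5 and 498.8 CPM with glutamine. 10 of the 11 were lower with glutamine, with a median log2 difference of -0.68 and 0 called, and none was at 0 in all libraries. Library 23_28 was highest for both, but HFD 5_11, second in macrophage markers, had the lowest Cfp of its arm. All 6 B cell markers tested were lower too (median -0.745, summed level 606.3 to 3875 CPM in HFD and 228.7 to 1302 CPM with glutamine), as were 4 of 6 T and NK cell markers (median -0.9) and 6 of 9 neutrophil markers (median -0.295), with 0 called. The part of these cells in the Cfp values was not tested.

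**Figure D2:**
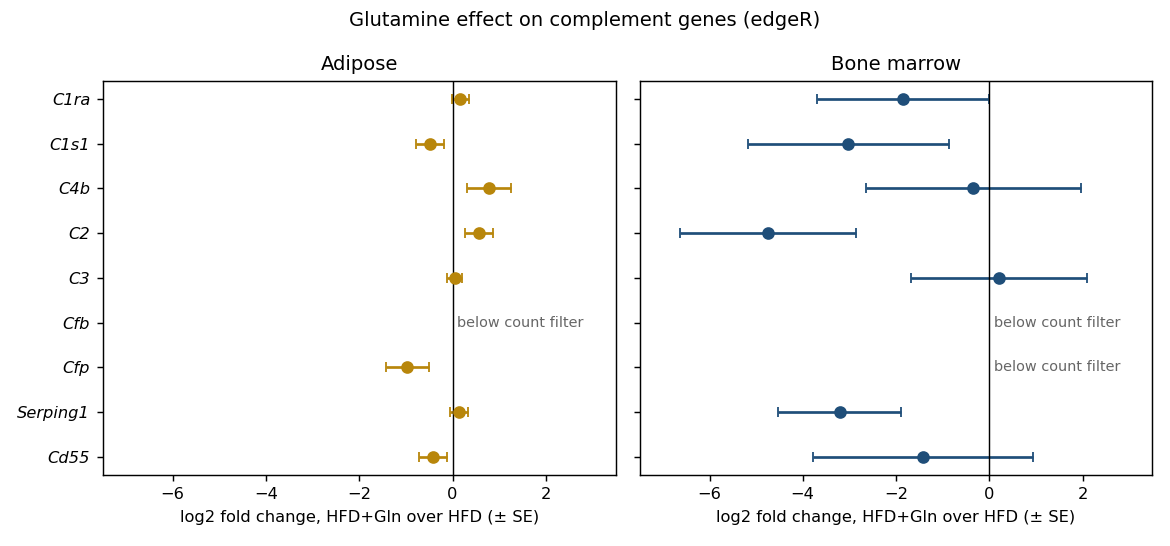
Fitted log2 fold change of each complement gene, HFD + Gln over HFD, with its standard error, in adipose (left) and bone marrow (right) on the same axis. The adipose values lie between -0.97 and 0.77, the marrow values between -4.75 and 0.21 with far wider errors, and Cfb (both tissues) and Cfp (marrow) had too few counts for the test.

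In bone marrow Serping1 was lower with glutamine in every library. The HFD libraries 1_3, 5_11, 14_17 and 23_28 read 1987, 1103, 1261 and 1976 CPM, and the glutamine libraries 4_6, 10_12, unnumbered, 18_20 and 25_27 read 799.6, 357.7, 17.24, 501.7 and 14.67 CPM. The arms did not overlap, and 2 of the 5 glutamine libraries stood at 0.528% and 0.449% of the adipose mean. Of all 6041 genes tested in marrow, 0.248% had CPM ranges that were lower with glutamine and did not overlap. The log2 difference was -3.21 ± 1.32, which missed the threshold after adjustment over all genes (edgeR adjusted p = 0.197).

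That call depended on the method. DESeq2 called it with an adjusted p of 0.00705, and the joint fit of both tissues -2.85 with an edgeR adjusted p of 0.0153, while limma-voom gave -3.61 with 0.334. DESeq2 called 5.07% of 6041 genes lower in marrow and the joint fit 8.79% of 15203. All 18 alternatives kept the direction, from -5.34 to -2.41, with adjusted p from 0.00705 to 0.707. Without the 2 thinnest libraries, one per arm, the difference was -2.41 (adjusted p = 0.332, edgeR). Neutrophil marker sums were among the highest in those same 2 libraries and in glutamine 25_27, at 54230, 18290 and 25620 CPM, against 2699 to 8374 CPM in the other 6, and Serping1 was 1976, 17.24 and 14.67 CPM there. The part of neutrophils in the Serping1 values was not tested.

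None of the 7 complement genes tested in marrow was called by edgeR, against a background of 0.132% of 6041 genes. Serping1 and C2 had an unadjusted p under 0.05, as did 1127 of all genes. The median log2 difference was -1.85 over the 7 genes, with 6 below 0, and -0.218 over all genes. C2 had the largest fitted difference of the 7 genes, -4.75 ± 1.89 (edgeR adjusted p = 0.197), and it rested on 1 library. HFD 5_11 read 54.35 CPM, the other 3 HFD libraries 0.4739, 0.3928 and 0.4966 CPM, and the glutamine libraries 0.3443, 0.5726, 0.77, 0.1282 and 0.3903 CPM. Without HFD 5_11 the difference was -0.61 ± 0.932.

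C3 gave no such difference, at 67.05, 131.8, 456.3 and 23.49 CPM in HFD and 496.5, 50.53, 523.9, 232.4 and 83.58 CPM with glutamine. The arms overlapped almost wholly and the log2 difference was 0.21 ± 1.89 (edgeR adjusted p = 0.976). C1ra differed by -1.85 ± 1.85, C1s1 by -3.03 ± 2.16, C4b by -0.34 ± 2.31 and Cd55 by -1.43 ± 2.36, with edgeR adjusted p from 0.505 to 0.969. Single libraries set 3 of these: C1s1 turned to 3.87 without HFD 23_28, and C4b and Cd55 to 5.98 and 4.44 without HFD 14_17. Cfp did not pass the count filter in marrow and did not enter the test. It had at least 100 counts in 2 marrow libraries, and C2, which was tested, in 1.

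Most complement genes were read in only some marrow libraries, and which ones differed from gene to gene. Against its adipose mean, C1s1 stood at 94% in HFD 23_28, 27.2% in glutamine 4_6 and 17.5% in glutamine 18_20, and at 0.322% to 0.717% in the other 6. C4b stood at 114% in HFD 14_17, 189% in glutamine 4_6 and 92.5% in glutamine 18_20, and at no more than 1.29% elsewhere. Cd55 was read in HFD 14_17 (72.2%) and in glutamine 10_12, 18_20 and 25_27 (18.9% to 29.9%), and Cfp in HFD 14_17 (727%) and glutamine 18_20 (51.4%). C2 was read in 1 library. Serping1 and C1ra were each above 10% in 7 libraries, with a highest marrow level 135 and 188 times the lowest. C3 was never above 10.6%, and its highest level was 22.3 times its lowest.

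The proteases and their inhibitor did not share one pattern. C1ra was at 0.475% in glutamine 4_6, where C1s1 was at 27.2%, and at 89.2% in HFD 1_3, where C1s1 was at 0.435%. Glutamine 18_20 held the widest set, with 6 genes between 15.4% and 92.5%, and HFD 14_17 held 4 of the classical and regulatory genes together with Cfp. The low values were alike across genes: the lowest marrow level was 0.141% to 0.476% of the adipose mean for the 8 genes other than Cfb. Over the 715 genes with at least 100000 adipose counts the same share had a median of 0.518%, with 0.369% and 0.883% as its quartiles, and none of those genes was at 0 in any marrow library. C4b, C2 and Cfp had fewer adipose counts than that (77689, 40212 and 9308). The lowest C2 and Cfp values, 0.141% and 0.232%, rested on 4 counts and 1 count. Whether these low counts are transcripts of the marrow samples was not tested.

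**Figure D3:**
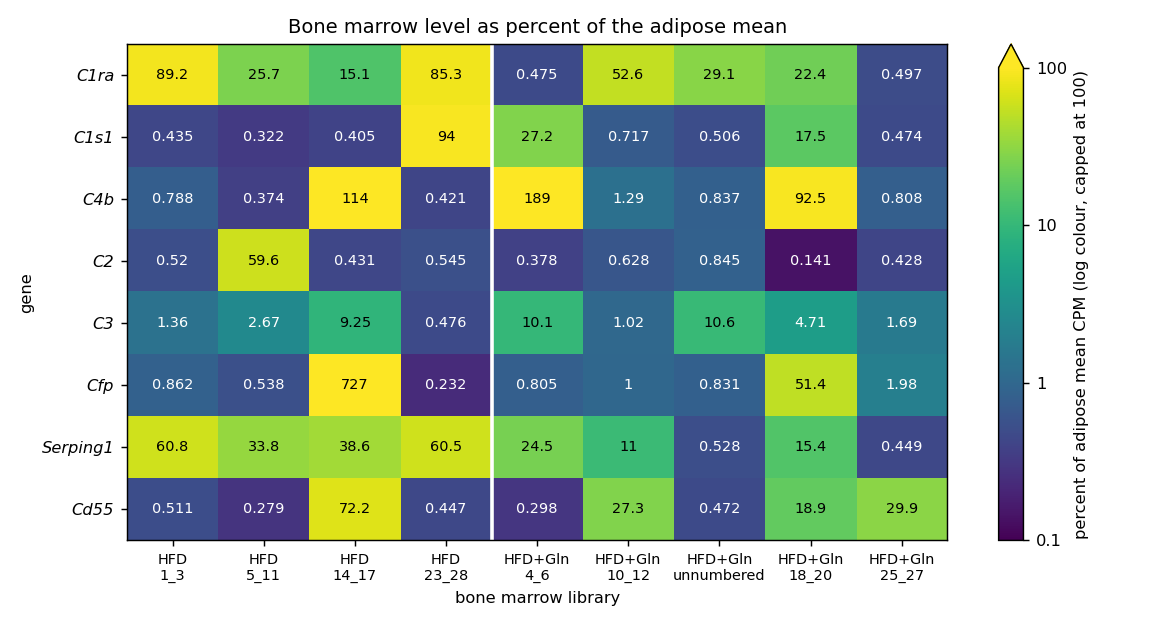
Level of 8 complement genes in each marrow library as a percent of the gene's mean adipose CPM, printed in each cell and coloured on a log scale capped at 100, HFD libraries left of the white line. High cells fall in different libraries for different genes, and the lowest cell of each gene lies between 0.141% and 0.476%.

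The tissues were set against each other to show where these genes are read. Each tissue also had its own isolation and its own count table, and the 3 cannot be told apart. In CPM, C3 was higher in every adipose library (3942 to 5922) than in any marrow library (23.49 to 523.9), and so was Serping1 (2479 to 4516 against 14.67 to 1987). These were 2 of the 9 genes, and 16% of all 15203 genes tested had adipose ranges above marrow without overlap. The ranges of C4b, Cfp, C2, C1ra, C1s1 and Cd55 overlapped: 3 marrow libraries reached the adipose range for C4b, 2 for C1ra, and 1 for each of C2, C1s1 and Cd55, while for Cfp 1 marrow library passed it.

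With TMM scaling, edgeR called 2 of 8 genes higher in adipose and 0 lower, where 40.5% of all genes were called higher and 11.2% lower. C3 differed by 2.49 ± 0.588 (log2 adipose over marrow ± SE, n = 9 per tissue, adjusted p = 0.00155) and C2 by 3.22 ± 1.00 (adjusted p = 0.0115). The median of all genes was 1.43 on this scale, so C3 lay 1.07 and C2 1.79 above it. Serping1 differed by 0.29 ± 0.539, C1s1 by 0.71 ± 1.04, Cd55 by 0.77 ± 1.04, C1ra by -0.34 ± 0.725, Cfp by -0.53 ± 1.18 and C4b by -0.75 ± 1.17, with edgeR adjusted p from 0.546 to 0.72. Some of these values rested on 1 library. Without marrow HFD 23_28 C1s1 was 4.15, and without marrow HFD 14_17 Cd55 was 3.71 and Cfp 3.98, all 3 then called higher. Serping1 ran up to 0.92 (without marrow glutamine 4_6), and C2, called throughout, up to 5.61 (without marrow HFD 5_11). Relative to that median, all 6 lay below it, from -2.18 for C4b to -0.66 for Cd55.

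The direction flipped with the scaling for Serping1, C3, C1s1 and Cd55, and for C2 with relative log expression factors. C4b, Cfp and C1ra stayed below 0 throughout. With relative log expression factors the median of all genes was -1.94, 0 of the 8 genes were called higher and 6 lower, where 42.9% of all genes were lower, and C3 and C2 stood at -1.42 and -0.43. Upper-quartile factors gave a median of -0.89, 0 higher and 4 lower (33.8% of all genes), and C3 and C2 at -1.27 and 1.21. Of all genes, TMM called 6150 higher and 1708 lower, relative log expression 2465 and 6524, and upper-quartile 3222 and 5144. Under all 3 scalings C2 was above the median of all genes and the other 6 were below it, while C3 was above it with TMM and relative log expression and below it with upper-quartile factors. A change of scaling moves all genes together, so the 3 are not independent checks. Other fits placed more members above the median. In the glutamine arm alone (median -1.31) Serping1 was 0.18, C1s1 0.71 and Cfp 0.88. With limma-voom (2.66) C1s1 was 3.53 and Cd55 2.96. With the replicate number as a block (3.91) C1s1 was 4.06 and Cfp 3.99, while C3 was below at 3.57. In these fits C2 stayed above and C1ra below.

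**Figure D4:**
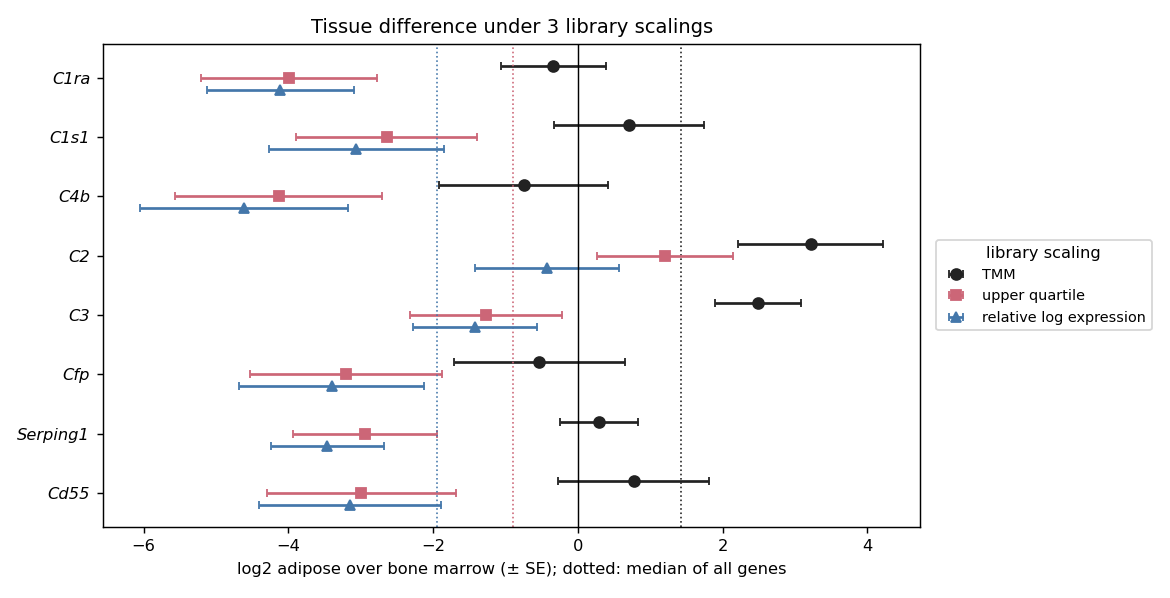
Fitted log2 difference of 8 complement genes, adipose over bone marrow, with its standard error, under TMM, upper-quartile and relative log expression scaling, and dotted lines at the median of all genes under each (1.43, -0.89 and -1.94). Points of one gene move with the scaling as the dotted lines do, and C2 lies to the right of the line of the same colour in all 3, C3 in 2 of them.

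The difference between the glutamine effects of the tissues was tested as an interaction, adipose effect minus marrow effect, in a joint fit of all 18 libraries. None of 8 complement genes was called, against 11.9% of 15203 genes. That background of 1811 genes fell to 0 when any 1 of the 9 adipose libraries or marrow HFD 23_28 was left out, so the members' count is not read against it. C2 came nearest at 5.54 ± 1.97 (log2 ± SE, edgeR adjusted p = 0.0612), followed by Serping1 at 2.77 ± 1.10 (adjusted p = 0.0918). The C2 value rests on marrow HFD 5_11 and fell to 0.88 without it. Leaving out the 2 thinnest marrow libraries brought calls for C2 (higher) and C1s1 (lower), leaving out marrow glutamine 4_6 brought one for Serping1, and leaving out the unnumbered marrow library one for C2 (higher). Relative log expression and upper-quartile factors called 0 of all genes, with 4244 and 3958 at an unadjusted p under 0.05. Where Serping1 is concerned, its effect in marrow is therefore not shown to differ from that in adipose.

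A further 42 complement genes were listed for comparison: initiators, the C4 copy, terminal components, soluble and membrane regulators and receptors. Of these, 5 had 0 counts in all 18 libraries, 30 reached 100 counts in an adipose library and 15 in a marrow library. edgeR called 0 of 21 tested in adipose (6 above and 15 below 0, median log2 difference -0.254) and 0 of 10 in marrow (5 and 5, median 0.271). Among the highest in adipose were Cr1l, a membrane regulator, at 181.4 CPM on average, C7 of the membrane attack complex at 112.4 CPM and Clu, which blocks that complex, at 82.23 CPM.

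In adipose these 3 genes differed with glutamine by 0.16 ± 0.181 (Cr1l), -0.11 ± 0.318 (C7) and 0.58 ± 0.353 (Clu). Next by level were the scavenger collectin Colec12 (66.07 CPM, log2 difference -0.43 ± 0.276) and Cd59a (44.28 CPM, 0.10 ± 0.370), which protects cells from the attack complex. Itgb2, the beta chain of complement receptor 3 (39.54 CPM, -1.02 ± 0.577), and C3ar1, the C3a receptor (28.26 CPM, -1.29 ± 0.486), are leukocyte genes and were read at lower values in the arm with lower macrophage marker sums. The edgeR adjusted p was 1.00 for these 7 genes, and the part of macrophages in the last 2 was not tested.

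Between tissues, edgeR with TMM factors called 8 of 23 of these genes higher in adipose and 6 lower, against 5 and 10 with relative log expression factors and 6 and 10 with upper-quartile factors. C7 was among those higher, at 3.20 ± 1.12 (adjusted p = 0.0218), with 57.43 to 171.9 CPM in adipose, a marrow median of 0.4808 CPM and 1 marrow library at 118.3 CPM. With relative log expression and upper-quartile factors C7 turned to -0.73 and -0.14. Clu was among those lower, at -4.45 ± 0.967 (adjusted p = 0.000737), and it stayed lower with both other scalings (-8.37 and -8.16). It reached 1269 CPM in marrow, against 137.6 CPM at most in adipose, though it was as low as 1.291 CPM in 1 marrow library.

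Genes whose levels followed those of 4 members most closely across the 9 adipose libraries were sought among 8760 genes, as a description in libraries that share tissue, depth and preparation. C3 was followed by Cd248, a stromal cell surface protein (Pearson r = 0.952, Spearman rho = 0.933), Tmem19 (0.946 and 0.95) and Zfp639 (0.939 and 0.867). Serping1 was followed by Vwa9 (0.928 and 0.9), Plscr4 (0.912 and 0.933) and Ace (0.909 and 0.85). Cfp was followed by Dld (0.94 and 0.817), Tbc1d14 (0.939 and 0.883) and Tor1a (0.925 and 0.817). For C4b the leading genes were Igfbp5, Mme and Procr, with r of 0.909, 0.905 and 0.893 but rho of only 0.3, 0.183 and 0.15, so that these values rest on library 25_27.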

How the data were processed

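RNA of 9 bone marrow and 9 adipose samples was made into 3′ end libraries, of which only read 1 was used, per the labels' protocols. The authors deposited whole-number counts per gene and sample, with totals that differ between libraries. The build GRCm38 and the tools STAR 2.7.10b, HTSeq 0.11.3 and FastQC 0.12.1 are listed, without roles, per the submitters' processing notes. The sources used here do not state the strand setting, how reads that fit several genes were handled, or molecular identifiers.

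Levels are CPM of the library total. Tests used edgeR 4.0.16 in R 4.3.3 (filterByExpr, TMM, quasi-likelihood F test, Benjamini-Hochberg over all genes tested, called at adjusted p under 0.05), per tissue for glutamine and on all 18 libraries for tissue and interaction. The SE is the absolute log2 fold change divided by the square root of F. Scripts were tested on simulated data with far less spread between libraries than the marrow libraries show. That test gives no error rate for the marrow values.

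The 9 members, the gene lists and the tests were chosen with earlier results of these data known. Text names all 9 members, other complement genes called for glutamine or among the 8 highest in adipose (1 of them is not reported here), and the 3 genes most like C3, C4b, Cfp and Serping1 (mean log2 CPM at least 3, no predicted models). Alternatives were other scalings and count filters, DESeq2 1.42.0, limma-voom 3.58.1 with quality weights, robust and joint fits, a replicate block, single arms and leaving out each library. Leaving out the 2 thinnest marrow libraries was added after seeing the data.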

Additional observations from a re-analysis of the deposited data

Results flagged for a closer look

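In 7 of 32 groups of 4 or 5 libraries, Cfb aside, 1 library stood apart from the rest by Dixon's criterion. The criterion flags about 1 in 20 groups only where values are normally distributed and groups independent. Marrow CPM spanned a wide range within groups, up to 3131 times for Cfp in HFD, and 1 marrow library gave 3 of the flags. The 7 of 32 are therefore not read as an excess over chance. In adipose the flag was C4b at 590 CPM in glutamine 25_27, against 99.4 to 178 CPM in the other 4. Cfb at 0.0194 CPM in adipose HFD 14_17, a single count against 0 in the other 3, meets the criterion by construction. The marrow library HFD 14_17 stood apart for 3 genes: C4b at 202 CPM (others 0.662 to 1.4), Cfp at 155 CPM (0.0497 to 0.184) and Cd55 at 208 CPM (0.806 to 1.47). C1s1 did so in marrow HFD 23_28 at 638 CPM (2.19 to 2.95) and C2 in marrow HFD 5_11 at 54.3 CPM (0.393 to 0.497). In the marrow glutamine arm Cfp did so in 18_20 at 11.0 CPM (0.172 to 0.423).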

How the results depend on the processing

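In adipose 0 members were called by every alternative, and in marrow 0 by all but DESeq2 and the joint fit. DESeq2 called 1 lower (Serping1), where 5.07% of all genes were lower. It gave no adjusted p to C2, C4b and C1s1 in marrow, nor to these and Cfp between tissues, so it left them unassessed. The joint fit called 3 lower (C2, Cfp and Serping1), where 8.79% of all genes were lower. For Cfp, marrow HFD 14_17 read 155 CPM and the other marrow HFD libraries at most 0.184 CPM. Between tissues the count of 2 (higher, with 6150 genes higher and 1708 lower) became 6 lower with relative log expression factors (2465 and 6524), 4 lower with upper-quartile factors (3222 and 5144), 3 lower with DESeq2 (2262 and 4160), 4 higher with limma-voom (4085 and 378), 3 higher with the replicate block (7169 and 330), 1 lower in the HFD arm alone (4418 and 714), 0 in the glutamine arm alone (2755 and 3281), and 2 to 4 when a library was left out, 4 without marrow HFD 14_17. For the interaction the count of 0 ran from 0 to 1 when a library was left out. It was 2 without the 2 thinnest marrow libraries, with 681 genes higher and 796 lower of 16253. There 3 members were called between tissues, with 6641 genes higher and 1669 lower. With 1 library left out, 7020 to 8473 genes were called between tissues and 0 to 2681 for the interaction.

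Over all genes, the 8 called in marrow became 202 with no count filter, 722 with DESeq2, 3926 in the joint fit, 1 with limma-voom and 0 with relative log expression, upper-quartile or robust fitting or a minimum count of 100. With 1 library left out it ran from 0 to 19: 0 without marrow glutamine 4_6, 10_12, 18_20 or 25_27, 2 without HFD 23_28, and 14 to 19 without HFD 1_3, 5_11 or 14_17 or the unnumbered library. The adipose count of 0 became 31 with DESeq2. The 1811 of the interaction became 0 with relative log expression, upper-quartile factors or the replicate block, 3 with limma-voom and 1061 with DESeq2. It ran from 0 to 2681 with 1 library left out: 0 without any adipose library or marrow HFD 23_28, 399 to 466 without another marrow HFD library, and 2094 to 2681 without a marrow glutamine library. The replicate block used only the 8 pairs.

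Log2 values changed sign as follows, and the cause was not tested. In adipose the joint fit gave Serping1 -0.08, C3 -0.15 and C1ra -0.04. In marrow C3 was -0.06 with relative log expression, -0.06 with DESeq2 and -1.07 without the 2 thinnest libraries. C4b was 0.38 with no filter, 1.10 with limma-voom and 0.34 in the joint fit. C1s1 was 0.54 with limma-voom and 4.15 without the thinnest libraries, and Cd55 1.30 with limma-voom. Between tissues, relative log expression gave Serping1 -3.46, C3 -1.42, C2 -0.43, C1s1 -3.06 and Cd55 -3.15. Upper-quartile factors gave Serping1 -2.94, C3 -1.27, C1s1 -2.64 and Cd55 -2.99. DESeq2 gave Serping1 -3.46, C3 -1.42, C2 -0.42, C1s1 -3.06 and Cd55 -3.15. Limma-voom gave C4b 2.60, Cfp 2.59 and C1ra 0.59, and the replicate block C4b 2.77, Cfp 3.99 and C1ra 1.16. The HFD arm alone gave Serping1 -1.93, C2 -0.40, C1s1 -0.89 and Cd55 -0.35, the glutamine arm alone C3 -0.90, Cfp 0.88 and Cd55 -1.04, and leaving out the thinnest libraries C1ra 0.46. For the interaction C3 was 0.25 with upper-quartile factors and 0.74 without the thinnest libraries, where C1s1 was -4.87. Limma-voom gave C4b -0.41 and Cd55 -1.06, and the replicate block C4b -2.62, Cd55 -4.30, Cfp -1.53 and C1s1 -1.79.

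With 1 library left out at a time, adipose C3 ran from -0.04 to 0.11 and C4b from -0.03 to 0.96. Marrow C1s1 ran from -4.54 to 3.87, C3 from -0.67 to 1.96, C4b from -1.84 to 5.98 and Cd55 from -1.85 to 4.44. Tissue values ran from 0.59 to 4.15 for C1s1, 0.63 to 3.71 for Cd55, 0.23 to 0.92 for Serping1, 3.06 to 5.61 for C2, -0.45 to 0.09 for C1ra, -1.15 to 2.46 for C4b and -0.85 to 3.98 for Cfp. Interaction values ran from -4.58 to 3.44 for C1s1, -2.04 to 0.39 for C3, -5.47 to 2.44 for C4b, -4.91 to 1.42 for Cd55 and -4.44 to 6.54 for Cfp.

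For the 8 number pairs shared by the tissues, deviations of same-numbered libraries from their group means correlated between -0.0086 and 0.03, none over 0.1. Within its arm, 3 of 8 adipose libraries correlated best with the marrow library of their own number. These correlations compare different tissues, so they cannot tell whether same-numbered libraries share a source.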
